A study of Mus musculus with 18 samples.

Results

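Gene expression in antigen-presenting cells was compared with that in CD4 T cells of the mouse. The antigen-presenting side gave equal weight to B cells, whose lineage makes antibodies, and to dendritic cells (labelled DC), specialists in taking up antigen. The other side gave equal weight to naive CD4 T cells, which await their antigen, and to the Th1 and Th2 effector forms they turn into. Each of these 5 groups had 3 arrays described as biological replicates, so 6 antigen-presenting arrays stood against 9 T cell arrays, 15 of the 18 Illumina BeadChip arrays of the series, whose other 3 hold whole brain. The strain on every label was C57/BL6, with both sexes entered for each sample. The descriptions of all 15 arrays compared read wt, for wild type. The labels do not state how the cells were isolated, whether any were cultured or stimulated, or how old the mice were. A gene was tested where a probe with 1 gene symbol was detected (detection p under 0.01) on at least 3 of the 15 arrays, which held for 9742 of the 19057 genes that have a named probe. At the edge of that rule, the 1113 probes detected on exactly 3 arrays had a median log2 signal of 4.62 and the 688 detected on 2 arrays one of 4.53, against 6.74 for the median tested gene. No T cell array detected 633 of the tested genes and no antigen-presenting array 416, so these entered through 1 class alone. Such genes could hardly come out lower in that class, which limits the counts by list below.

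Antigen-presenting cells load peptides from engulfed protein onto MHC class II molecules and show them to CD4 T cells, whose T cell receptor reads the complex through the CD3 chains and the kinase Zap70. A second contact, between partners such as Cd86 and Cd40 on the presenting cell and Cd28 and Cd40lg on the T cell, helps decide whether the T cell responds. Class II genes are switched on by the coactivator Ciita, which has no DNA-binding domain of its own and acts through the RFX and NF-Y factors on their promoters.

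Probes detected per array numbered 15204 to 16259 on DC arrays, 15170 to 15848 on B cell arrays and 12564 to 15161 on T cell arrays. The mean background signal was 47.3 to 48.6 on DC arrays, 49.9 to 56.1 on B cell arrays and 34.7 to 39.4 on T cell arrays, so background and class cannot be told apart. The DC arrays carried markers of other cells. The summed normalised signal (linear, offset included) of 8 B cell markers was 1732 to 3589 on DC arrays, 18863 to 19873 on B cell arrays and 167 to 297 on T cell arrays. That of 6 T cell markers was 1512 to 2124 on DC arrays, 292 to 628 on B cell arrays and 14536 to 30633 on T cell arrays. That of 8 granulocyte markers was 38870 to 56082 on DC arrays, 183 to 357 on B cell arrays and 162 to 287 on T cell arrays. NK and CD8 T cell markers summed to 5402 to 6433 on DC arrays, 788 to 1342 on B cell arrays and 1314 to 2861 on T cell arrays, and macrophage markers to 7175 to 11445 on DC arrays, 225 to 303 on B cell arrays and 144 to 323 on T cell arrays. Erythroid markers summed to 1854 to 9959 on DC arrays, 238 to 1875 on B cell arrays and 76 to 231 on T cell arrays. That of 9 dendritic cell markers was 2560 to 3014 on DC arrays, 325 to 722 on B cell arrays and 293 to 1476 on T cell arrays. Clec9a (9.73 on the log2 scale), Zbtb46 (7.72) and Itgax (5.84), which encodes the integrin CD11c, were detected on all 3 DC arrays, and Zbtb46 also on the 3 Th1 arrays (6.07). Of 15 stress and dissociation genes, 7 were higher and 1 lower in antigen-presenting cells, with sums of 26014 to 65830 on DC arrays, 13553 to 29330 on B cell arrays and 9936 to 24533 on T cell arrays. The part of any of these in the differences was not tested.

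Of the 9742 genes, 2241 passed (limma; a log2 difference of 1 or more either way with a Benjamini-Hochberg adjusted p below 0.05), a background of 23.0%. Among them, 1219 genes (12.5%) were higher and 1022 (10.5%) lower in antigen-presenting cells. All 6 antigen-presenting arrays lay above all 9 T cell arrays for 683 genes (7.01%) and below them for 745 (7.65%), and the median difference over all genes was -0.01. Of the passing genes 54.4% were higher, against 87.4% under median scaling, which shifted the median of all genes to 0.57, and 65.5% with the authors' scaled values. The standard errors rest on the spread between arrays of a group. A fit of 2 classes took cell type as a random block, with 1 correlation between arrays of a cell type (0.81) shared by all genes. By that fit, which does not make the cell types the replicates, 651 of the 9742 genes passed, 383 higher and 268 lower. Against T cells, B cells alone gave 1135 of the 9742 genes higher and 1115 lower, and DC alone gave 1410 higher and 1092 lower. In bulk samples, fewer cells of a type and less RNA per cell cannot be told apart.

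**Figure D1:**
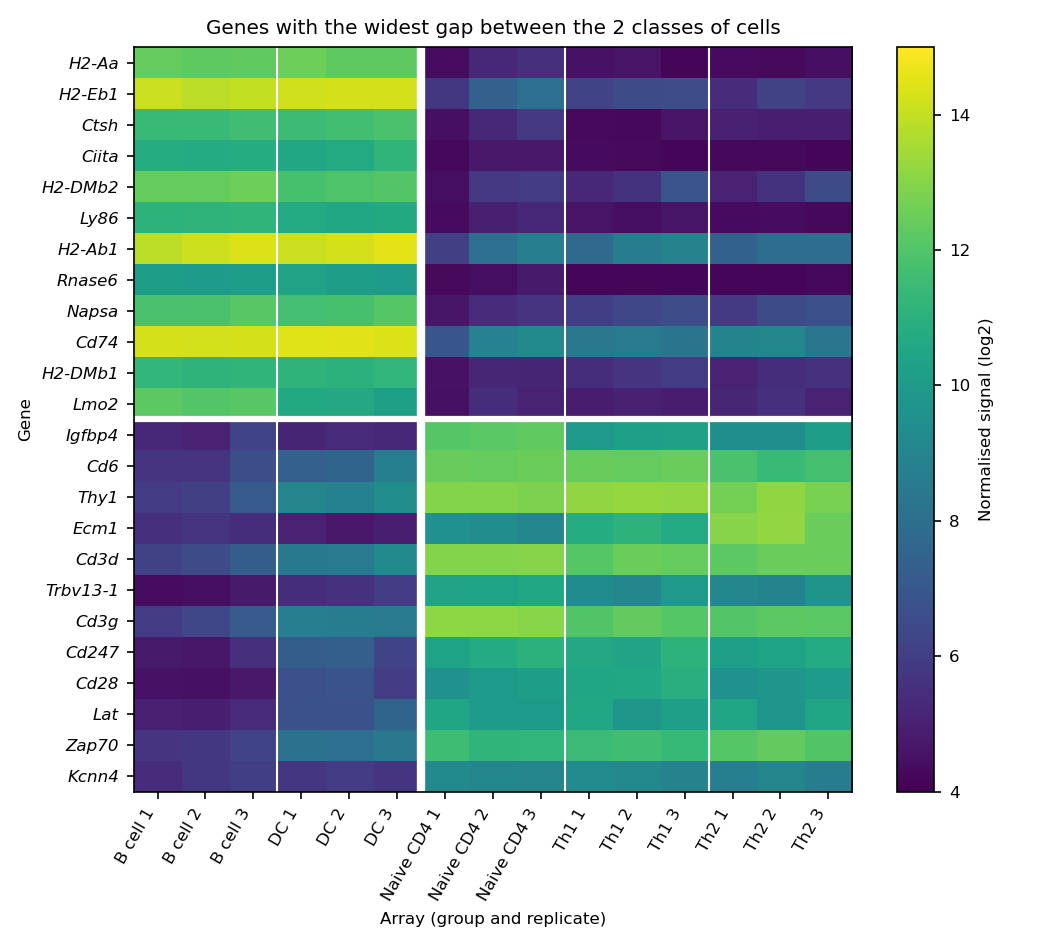
Normalised signal (log2, colour) of the 24 genes with the widest gap between the classes, in rows, on each of the 15 arrays, in columns, with the 6 antigen-presenting arrays left of the 9 T cell arrays. The 12 genes above the white line are bright on every B cell and DC array, and the 12 below it are bright on every T cell array, with more signal on DC than on B cell arrays for most of the CD3 and T cell receptor genes.

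The genes with the widest gap on the antigen-presenting side were mainly those of MHC class II. H2-Aa, the alpha chain of the class II molecule I-A, had 12.56, 12.27 and 12.29 (log2 normalised signal) on the DC arrays and 12.38, 12.29 and 12.31 on the B cell arrays, against 4.38, 5.24 and 5.52 in naive CD4, 4.54, 4.58 and 4.19 in Th1 and 4.34, 4.30 and 4.45 in Th2 cells. The 6 antigen-presenting values span less than 1 log2 unit and lie far above every T cell value, of which only 2, both naive, were detected. H2-Aa was 7.73 ± 0.14 (SE) log2 units higher in antigen-presenting cells (adjusted p = 8.34e-16, and 1.35e-08 with cell type as a random block). H2-Eb1, the beta chain of I-E, ranged from 13.87 to 14.31 (median 14.17) on the antigen-presenting arrays and from 5.38 to 8.0 (median 6.26) on the T cell arrays, a difference of 7.69 ± 0.24. For H2-Ab1, the beta chain of I-A, the difference was 6.29 ± 0.31, and for Cd74, the invariant chain that guards the class II groove, 5.85 ± 0.26. Ciita, the coactivator, had 10.58 to 11.20 (median 10.78) on the antigen-presenting arrays and 4.15 to 4.77 (median 4.25) on the T cell arrays, on none of which it was detected. It was therefore at least 57.7-fold higher in antigen-presenting cells, a bound on normalised means with each T cell array set to the lowest signal among its detected probes or to the probe's own, whichever is higher. Ciita met the detection filter through the antigen-presenting arrays alone.

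The promoters of class II genes are shown because these genes moved together; each is the RefSeq window (GRCm38.p6) from 250 bases before to 50 after the gene's start, 5′ to 3′ on the gene's strand. Capitals mark GATTGG, on either strand, the core of the Y box that NF-Y is known to bind. The windows are H2-Aa at chr17:34287774-34288073 (minus strand), H2-Eb1 at chr17:34305617-34305916 (plus), H2-DMb1 at chr17:34152941-34153240 (plus) and H2-Oa at chr17:34092129-34092428 (plus).
H2-Aa: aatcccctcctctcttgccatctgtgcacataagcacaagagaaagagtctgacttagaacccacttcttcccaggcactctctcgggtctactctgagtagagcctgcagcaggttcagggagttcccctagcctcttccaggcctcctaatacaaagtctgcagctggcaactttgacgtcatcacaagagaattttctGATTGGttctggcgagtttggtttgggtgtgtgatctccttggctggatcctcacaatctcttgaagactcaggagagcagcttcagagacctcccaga
H2-Eb1: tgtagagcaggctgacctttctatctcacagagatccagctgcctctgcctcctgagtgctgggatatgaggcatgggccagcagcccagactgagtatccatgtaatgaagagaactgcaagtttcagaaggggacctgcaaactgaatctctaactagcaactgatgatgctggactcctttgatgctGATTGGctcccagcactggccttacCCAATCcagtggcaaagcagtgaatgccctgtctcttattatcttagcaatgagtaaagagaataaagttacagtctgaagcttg
H2-DMb1: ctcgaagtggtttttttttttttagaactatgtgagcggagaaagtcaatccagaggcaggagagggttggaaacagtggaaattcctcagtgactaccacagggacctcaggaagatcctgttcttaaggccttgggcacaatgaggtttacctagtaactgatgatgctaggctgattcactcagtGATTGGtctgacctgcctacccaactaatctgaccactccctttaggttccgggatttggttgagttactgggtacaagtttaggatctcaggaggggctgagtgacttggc
H2-Oa: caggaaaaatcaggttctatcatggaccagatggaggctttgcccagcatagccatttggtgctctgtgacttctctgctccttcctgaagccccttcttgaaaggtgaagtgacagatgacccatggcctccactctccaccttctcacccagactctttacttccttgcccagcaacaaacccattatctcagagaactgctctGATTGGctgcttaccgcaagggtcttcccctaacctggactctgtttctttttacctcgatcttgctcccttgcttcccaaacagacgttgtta
GATTGG or its reverse complement began at position -49 in H2-Aa, -60 in H2-Eb1, -62 in H2-DMb1 and -44 in H2-Oa, counted from the gene's start. Of the 12 class II list genes whose windows were read, 15 windows in all, 11 held it in at least 1 window, and Ifi30 did not. List genes on 1 chromosome were left out of this count. The 11 include Rfxank, which did not pass, and Rfx5, which was not tested. The motif is in 16.1% of all 32851 windows of this length, a share by window and not by gene. Of 17 T cell receptor signalling genes whose windows were read, 1, Zap70, held it. The motif was chosen for what is known of class II promoters, and a match is a description of the letters, not of binding.

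The rest of the class II list followed the same split. Of 15 members tested, 13 were higher and 0 lower in antigen-presenting cells, with a median difference of 5.55. For the same number all 6 antigen-presenting arrays lay above the 9 T cell arrays, and no T cell array detected 2 of the 15. The peptide exchanger H2-DM was higher by 4.70 ± 0.20 for H2-DMa, 5.85 ± 0.12 for H2-DMb1 and 6.53 ± 0.28 for H2-DMb2, and its inhibitor H2-DO by 4.85 ± 0.14 for H2-Oa and 5.55 ± 0.11 for H2-Ob. H2-DMb1 and H2-DMb2, like H2-Eb1 and H2-Eb2, are close copies whose probes could share signal. Ifi30, a thiol reductase that unfolds antigen in the endosome, was higher by 2.89 ± 0.11, and Marchf1, a ubiquitin ligase that removes class II from the surface, by at least 21.3-fold, being undetected on all T cell arrays. The members that did not pass were Rfxap (-0.01 ± 0.08) and Rfxank (-0.28 ± 0.11, adjusted p = 0.034), subunits of the RFX factor through which Ciita acts. Rfxank lay near the floor, with group means of 4.57 to 5.59. It was detected on 3 of 6 antigen-presenting and 4 of 9 T cell arrays, none of them Th1, so its small difference says little. H2-Ea and Rfx5 lay under the detection filter.

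Within the antigen-presenting cells, 1 of the 15 class II genes passed DC minus B cells, against 1712 of all genes (17.6%, of which 67.5% were higher in DC, or 42.5% under median scaling). The class II differences ran from -1.82 to 0.74. That gene was H2-Ob, lower in DC by 1.82 log2 units (10.53 in DC and 12.35 in B cells). For H2-Aa the DC minus B cell difference was 0.05 ± 0.22, for Ciita 0.05 ± 0.17 and for Cd74 0.17 ± 0.41. Over the same arrays, 8 of 8 B cell markers were lower in DC, with differences of -4.98 to -1.25, and 8 of 8 granulocyte markers were higher, with differences of 5.80 to 8.26. With B cells alone against T cells, with DC alone, and with cell type as a random block, the count of higher class II members was again 13. Some T cell arrays kept class II signal: H2-Eb1 had 5.80, 7.39 and 8.0 in naive CD4 T cells, with B cell marker Cd79b at 5.45, 6.98 and 6.27 on the same arrays, and the part of other cells in that signal was not tested.

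**Figure D2:**
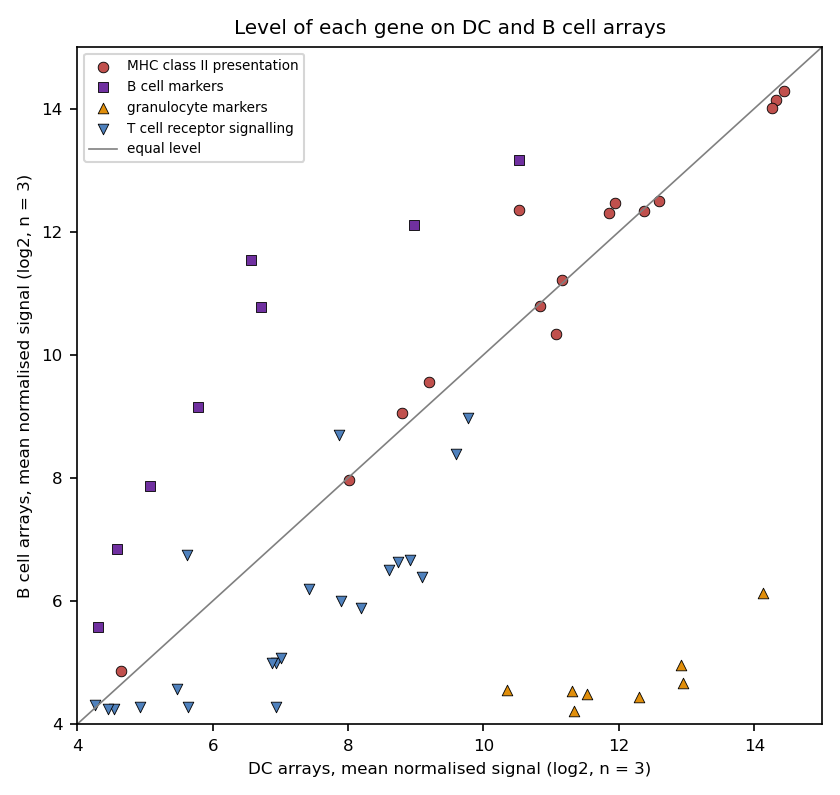
Mean normalised signal (log2, n = 3 arrays each) of each gene on DC arrays (x axis) and on B cell arrays (y axis); each point is 1 gene, coloured by list, and the line marks equal level. Most MHC class II genes lie near the line, B cell markers above it, and granulocyte markers and most T cell receptor signalling genes below it, with S100a8 at 14.13 in DC and 6.13 in B cells.

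Endosome and lysosome genes, which supply the proteases for antigen processing, were higher in antigen-presenting cells for 11 of 18 members and lower for 0 (median 1.26). Ctsh, the cathepsin H protease, had 11.45 to 11.84 (median 11.60) on the antigen-presenting arrays and 4.25 to 5.83 (median 4.93) on the T cell arrays, where it was detected on 3 of 9. The classes did not overlap, and the difference was 6.76 ± 0.16 (adjusted p = 1.09e-14). Ctss, the cathepsin that trims the invariant chain, was higher by 2.46 ± 0.10, Lgmn, the legumain protease, by 3.24 ± 0.15, and Psap, which activates lysosomal enzymes, by 2.75 ± 0.19. Lamp2, a lysosomal membrane protein, did not pass at 0.97 ± 0.11 by its brightest probe, though 1 of its 5 detected probes passed. General members such as Laptm5 (0.20 ± 0.09) and Ctsd (-0.20 ± 0.11) did not pass either. Rnase6 and Napsa, a secreted ribonuclease and an aspartic protease outside this list, were among the 12 widest gaps, Rnase6 at least 36.9-fold higher and Napsa higher by 5.95 ± 0.16. Against T cells, DC alone had 14 members higher and 0 lower and B cells alone 9 higher and 2 lower, and 8 of the 18 were higher in DC minus B cells. Under the random block by cell type 7 were higher.

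MHC class I, which all nucleated cells use to show internal peptides, did not follow class II. Of 18 members, 1 was higher and 2 lower (median -0.39). Cd1d1, which presents lipids, was higher by 2.11 ± 0.10, and it averaged 9.58 in DC and 9.55 in B cells, against 9.10 in naive CD4, 6.89 in Th1 and 6.39 in Th2 cells. The proteasome activator Psme2 was lower by 1.14 and the loading factor Tapbp by 1.00 in the mean of the antigen-presenting cells. Psme2 averaged 8.75 in DC and 7.55 in B cells, against 8.62 in naive CD4, 9.45 in Th1 and 9.80 in Th2 cells, so DC lay above naive cells. Tapbp averaged 7.47 in DC and 7.88 in B cells, against 8.01 in naive CD4, 8.66 in Th1 and 9.35 in Th2 cells. B2m, the light chain of class I, differed by -0.12 ± 0.07 and the peptide transporter Tap1 by -0.54 ± 0.13. The count of lower members was 1 without B cell replicate 2, DC replicate 3, naive CD4 replicate 3, Th1 replicate 3 or Th2 replicate 3, and under median scaling 4 members were higher and 0 lower. Psme2 (adjusted p = 0.0848) and Tapbp (adjusted p = 0.318) did not pass with cell type as a random block.

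Costimulatory ligands split between the classes: 5 of 13 were higher and 3 lower in antigen-presenting cells (median 0.12). Cd40, the receptor through which T cells license presenting cells, had 10.33, 10.43 and 10.17 in DC and 11.24, 11.13 and 11.39 in B cells, against 4.24, 5.0 and 4.85 in naive CD4, 5.37, 5.56 and 5.29 in Th1 and 6.10, 6.07 and 6.12 in Th2 cells. Every antigen-presenting array lay above every T cell array, with the highest T cell values in Th2. The difference was 5.38 ± 0.11 (adjusted p = 2.82e-15). Cd86, a ligand of Cd28, averaged 10.62 in DC and 8.77 in B cells, against 6.65 in naive CD4, 5.89 in Th1 and 6.67 in Th2 cells, a difference of 3.29 ± 0.16. Icosl, the ligand of Icos, was higher by 1.95 ± 0.08, and Cd80, the other Cd28 ligand, by 1.21 ± 0.14. Cd80 averaged 7.91 in DC and 4.69 in B cells, against 4.31 in naive CD4, 6.39 in Th1 and 4.56 in Th2 cells, so Th1 cells lay above B cells. The members lower in antigen-presenting cells were Cd70 (-2.95 ± 0.15), Tnfsf9 (-2.94 ± 0.15) and the inhibitory Vsir (-2.28 ± 0.19). Cd70 and Tnfsf9 were high in Th1 and Th2 cells and not in naive cells: Cd70 averaged 10.22 in Th1, 7.84 in Th2 and 4.30 in naive CD4 T cells. Cd274, which encodes the checkpoint ligand PD-L1, did not pass (0.12 ± 0.13). With cell type as a random block 3 ligands were higher and 0 lower.

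Of 19 costimulatory and inhibitory genes listed for T cells, 14 were lower and 1 higher in antigen-presenting cells (median -2.35). The list holds the ligands Cd40lg, Tnfsf8 and Fasl beside receptors and is not matched to the ligand list above. No antigen-presenting array detected 3 of the 19. Cd28 had 4.48 to 6.86 (median 5.36) on the antigen-presenting arrays, detected on 3 of 6, and 9.57 to 10.95 (median 10.10) on the T cell arrays. The classes did not overlap, and the difference was -4.58 ± 0.14 (adjusted p = 3.32e-13). The 3 arrays on which Cd28 was detected were those of DC, which averaged 6.51 against 4.59 in B cells. Icos (-4.06 ± 0.11) and Tnfrsf4, which encodes OX40 (-4.46 ± 0.09), were highest in Th1 and Th2 cells. Cd40lg, the partner of Cd40, was undetected on all 6 antigen-presenting arrays and at least 5.22-fold lower there, with averages of 8.69 in Th1, 7.71 in Th2 and 5.0 in naive CD4 T cells. The higher member was Btla, an inhibitory receptor that B cells are known to carry, at 9.81 in DC and 11.21 in B cells, against 9.38 in naive CD4, 9.73 in Th1 and 7.63 in Th2 cells (1.59 ± 0.13). Over all genes 3205 (32.9%) passed Th1 and Th2 minus naive cells, 47.0% of them higher (31.7% under median scaling and 37.1% with the authors' scaled values). By that test 11 of the 19 list members were higher in the effector cells. With cell type as a random block 9 of the 19 were lower and 0 higher.

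**Figure D3:**
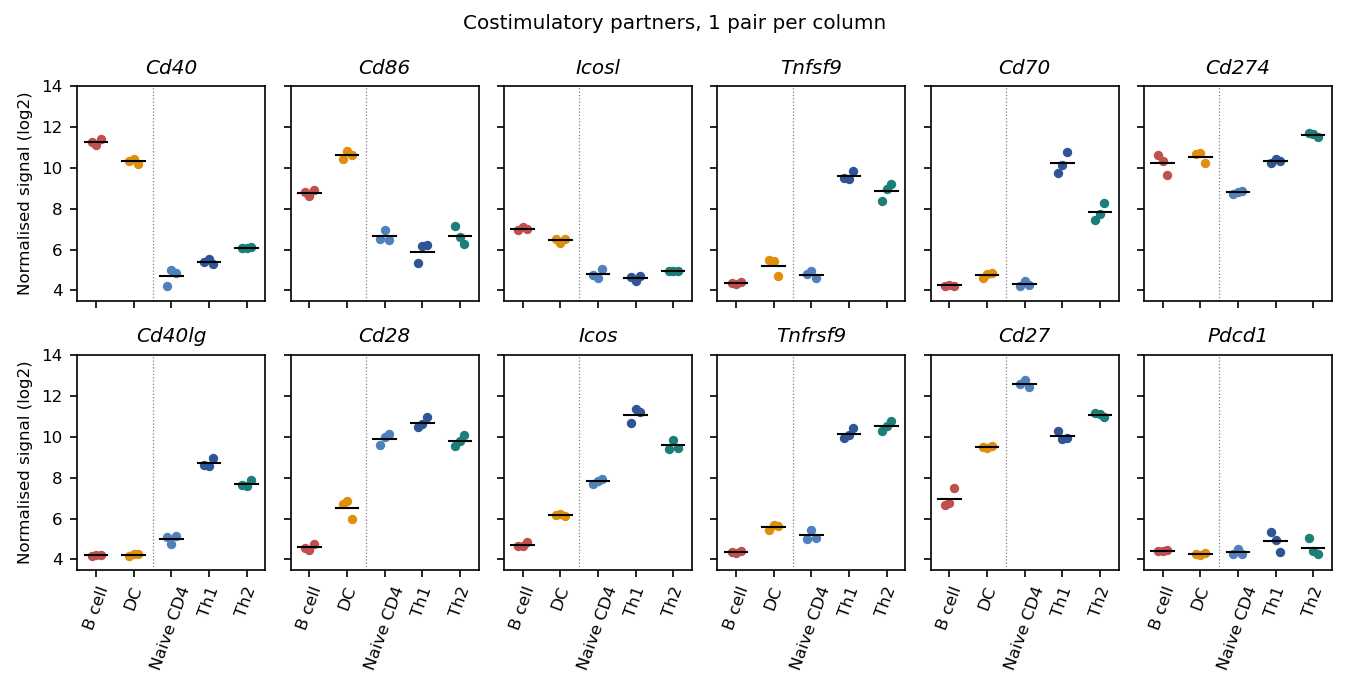
Normalised signal (log2) on each array (points; bars are means of 3 arrays) for 6 costimulatory pairs, 1 pair per column, with B cells and DC left of the dotted line and the T cell groups right of it. Cd40 and Cd86 are high on the left and Cd28 and Icos on the right, while Cd70 and Tnfsf9 are high in Th1 and Th2 cells.

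The T cell receptor complex and its proximal signalling genes were lower in antigen-presenting cells for 18 of 21 members and higher for 0 (median -3.03). For 16 of them the arrays of the classes did not overlap. No antigen-presenting array detected 2 of the 21. Cd3g, the gamma chain of CD3, had 8.70, 8.65 and 8.50 in DC and 5.95, 6.35 and 7.21 in B cells, against 13.12, 13.12 and 13.06 in naive CD4, 12.03, 12.34 and 12.09 in Th1 and 12.04, 12.23 and 12.19 in Th2 cells. All antigen-presenting arrays lay below all T cell arrays, with DC nearer to the T cells than B cells were. The difference was -4.91 ± 0.15 (adjusted p = 1.61e-13, and 5.27e-05 with cell type as a random block). Zap70, the kinase bound by the CD3 chains, averaged 8.19 in DC and 5.89 in B cells, against 11.33 in naive CD4, 11.50 in Th1 and 12.16 in Th2 cells, a difference of -4.62 ± 0.11. Trbv13-1, a variable segment of the T cell receptor beta chain, differed by -4.62 ± 0.15. The adaptor Lat differed by -4.17 ± 0.17, the surface protein Cd6 by -5.24 ± 0.20 and Thy1, the pan-T cell antigen of the mouse, by -5.26 ± 0.16.

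DC arrays held more signal of these genes than B cell arrays: 13 of 21 were higher in DC minus B cells and 1, Grap2, was lower. All 6 T cell markers were higher in DC, by 1.76 to 2.26, and the part of T cells among the DC samples in this was not tested. With B cells alone against T cells the difference of Cd3g was -5.98 and that of Zap70 -5.79, and with DC alone they were -3.92 and -3.52. With either group alone the count of lower genes was 18 and 16 with cell type as a random block. Cd5 (-0.40 ± 0.12), Grap2 (-0.59 ± 0.18) and Tespa1 (-0.79 ± 0.12) did not pass. Outside this list, wide gaps on the T cell side were those of Igfbp4, a binding protein of insulin-like growth factors, and Ecm1, a secreted matrix protein. Igfbp4 averaged 5.24 in DC and 5.52 in B cells, against 12.20 in naive CD4, 10.13 in Th1 and 9.71 in Th2 cells (-5.30 ± 0.16). Ecm1 averaged 4.91 in DC and 5.55 in B cells, against 9.34 in naive CD4, 10.89 in Th1 and 12.89 in Th2 cells (-5.81 ± 0.12). Kcnn4, a calcium-gated potassium channel, differed by -3.26 ± 0.11 with 5.78 in DC and 5.73 in B cells. The DC minus B cell differences were -0.28 ± 0.25 for Igfbp4 and 0.05 ± 0.17 for Kcnn4.

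The kinase relay used by B cell and myeloid receptors lay on the other side, with 16 of 19 members higher and 1 lower in antigen-presenting cells (median 3.26, or 2.69 with undetected genes at their bound). No T cell array detected 7 of the 19. Btk, the Tec-family kinase, had 9.44 to 10.73 on the antigen-presenting arrays and 4.19 to 5.05 on the T cell arrays, where 2 of 9 detected it. The classes did not overlap, and the difference was 5.63 ± 0.12 (adjusted p = 3.86e-15). Blk, a Src-family kinase of B cells, was at least 47.9-fold higher, with 8.98 in DC and 12.11 in B cells. Syk, the relative of Zap70 in these cells, was undetected on all T cell arrays and at least 1.57-fold higher. Plcg2, the phospholipase downstream of Btk, was higher by 4.72 ± 0.12 and the phosphatase-linked lectin Cd72 by 5.38 ± 0.21. Lilrb4a, an inhibitory receptor, differed by -2.87 ± 0.09 with its signal in Th1 (10.44) and Th2 (10.43) cells, and Vav1, shared by all lymphocytes, did not pass (-0.11 ± 0.11). Dok3, an adaptor that restrains this relay, was higher by 6.32 ± 0.15. In the random-block fit 14 of the 19 list members were higher and 0 lower, so Lilrb4a no longer passed.

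Fc and complement receptors were higher for 11 of 13 members and lower for 0 (median 3.20), with 5 of the 13 detected on no T cell array. Different members carried the signal in B cells and in DC. In DC minus B cells 4 were higher and 6 lower. Fcrla, an Fc receptor-like protein of B cells, averaged 9.91 in DC and 12.67 in B cells, against 5.0 in naive CD4, 4.18 in Th1 and 4.23 in Th2 cells. Fcer2a, the low-affinity IgE receptor, averaged 6.56 in DC and 11.54 in B cells, whereas Fcer1g, the signalling chain of activating Fc receptors, averaged 12.76 in DC and 5.53 in B cells. Fcgr2b, the inhibitory IgG receptor, was at least 17.1-fold higher than in T cells and differed between DC and B cells by -0.64 log2 units, without passing. Fcgrt, the neonatal Fc receptor, was higher by 5.01 ± 0.14, and 7 of the 13 passed with cell type as a random block.

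Innate sensors were higher for 17 of 23 Toll-like receptor list members and lower for 0 (median 1.91, or 1.47 with undetected genes at their bound). No T cell array detected 9 of the 23, which met the filter through the antigen-presenting arrays alone. Cd180 and Ly86 encode the surface partners RP105 and MD-1, in that order. Ly86 had 10.57 to 11.21 (median 10.93) on the antigen-presenting arrays and 4.25 to 5.22 (median 4.40) on the T cell arrays, a difference of 6.35 ± 0.11, and Cd180 was at least 19.3-fold higher. Unc93b1, which escorts nucleic acid sensors to the endosome, was higher by 4.91 ± 0.13 and Tlr7 by 2.68 ± 0.10. Tlr11, Tlr13 and Cd14 had their signal in DC, and Cd14 averaged 8.47 in DC and 4.40 in B cells. Myd88, the shared adaptor, did not pass (-0.04 ± 0.10), nor did Ticam1 (-0.60 ± 0.10). With B cells alone against T cells 11 members were higher, with DC alone 17, and with cell type as a random block 11. Of 6 NADPH oxidase subunits 2 were higher (Ncf1 by 2.99 ± 0.07 and Ncf4 by 2.31 ± 0.12) and 0 lower. Of 4 eicosanoid genes 2 were higher and 1 lower: Alox5ap averaged 12.35 in DC and 6.21 in B cells, and no member passed with cell type as a random block.

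**Figure D4:**
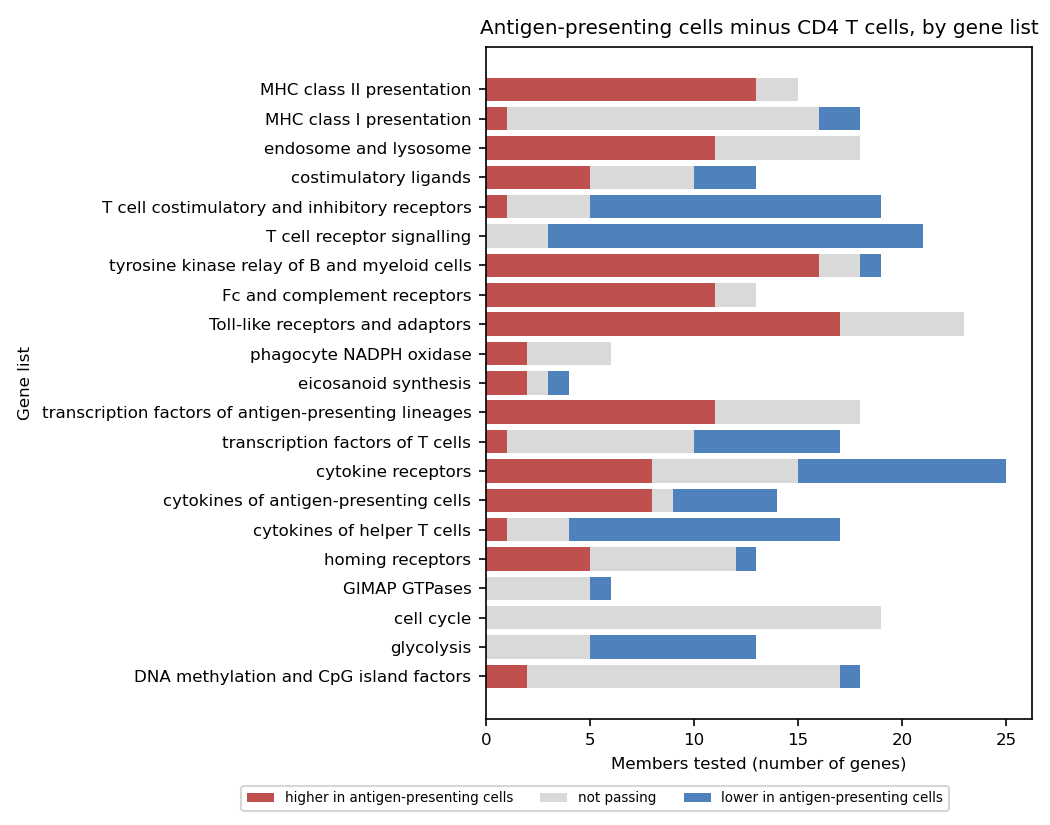
Number of tested members of each of the 21 gene lists (bar length) that were higher (red), not passing (grey) or lower (blue) in antigen-presenting cells. MHC class II, the kinase relay, Fc and Toll-like receptor lists are mostly red, and the T cell receptor, T cell costimulatory receptor and helper cytokine lists mostly blue.

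Transcription factors of the antigen-presenting lineages were higher for 11 of 18 members and lower for 0 (median 2.11, or 1.93 with undetected genes at their bound). No T cell array detected 4 of the 18. Bcl11a, needed for B cell and plasmacytoid dendritic cell development, was undetected on all T cell arrays and at least 30.7-fold higher, with 9.42 in DC and 10.38 in B cells. Mef2c was higher by 5.72 ± 0.15 and Tcf4, the E2-2 factor, by 3.47 ± 0.13. Spi1, the PU.1 factor, was at least 3.72-fold higher with 7.52 in DC and 6.20 in B cells, and its relative Spib at least 5.08-fold higher with 6.16 in DC and 8.46 in B cells. Lmo2, a haematopoietic cofactor outside this list, was higher by 6.27 ± 0.13. Ebf1, a B lineage factor (5.07 in DC and 7.87 in B cells), passed, and Zbtb46, a classical dendritic cell factor (7.72 in DC and 4.23 in B cells), did not at 1.00 ± 0.09. With cell type as a random block 7 members were higher. Of the 18, 10 were also higher and 0 lower in Th1 and Th2 than in naive cells, a test that 32.9% of all genes passed. The median level of the list was 5.07 in naive CD4, 7.32 in Th1 and 6.67 in Th2 cells, against 9.08 in DC and 8.43 in B cells.

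Of 17 transcription factors of T cells, 7 were lower and 1 higher in antigen-presenting cells (median -0.52). Bcl11b, which keeps T cells in their lineage, averaged 7.07 in DC and 5.31 in B cells, against 12.06 in naive CD4, 9.99 in Th1 and 10.12 in Th2 cells (-4.53 ± 0.21). Lef1, a Wnt-pathway factor of naive and memory T cells, differed by -3.00 ± 0.10, and Gata3, the Th2 factor, by -3.37 ± 0.12 with its highest level in Th2 (10.93). Nfatc1 was the higher member (1.03 ± 0.16); without B cell replicate 2, DC replicate 3, Th1 replicate 3 or Th2 replicate 3, 0 members were higher. Ets1 and Foxo1, which B cells also use, did not pass (-0.07 ± 0.13 and -0.52 ± 0.11). Maf did not pass at -0.74 ± 0.10. In the random-block fit 4 of the 17 were lower and 0 higher.

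Cytokine genes showed where the effector T cells stood apart from both the antigen-presenting cells and their naive precursors. Of 17 helper cytokines, 13 were lower in antigen-presenting cells and 1 higher (median -3.49, or -3.16 with undetected genes at their bound). For 1 gene alone, Tnfsf11, did the arrays of the classes not overlap, and no antigen-presenting array detected 6 of the 17. Il3 averaged 4.31 in DC and 4.27 in B cells, against 4.42 in naive CD4, 14.35 in Th1 and 14.33 in Th2 cells. It was undetected on all antigen-presenting and all naive arrays, and at least 78-fold lower in antigen-presenting cells. Il2 differed by -5.78 ± 0.11 and Il4 by -5.52 ± 0.08. Ccl5, a chemokine of activated lymphocytes, was the higher member (1.41 ± 0.29), with 12.89 in DC and 6.98 in B cells, against 5.59 in naive CD4, 10.22 in Th1 and 9.76 in Th2 cells. With cell type as a random block 6 helper cytokines were lower.

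Cytokines listed for antigen-presenting cells were higher for 8 of 14 members and lower for 5, and the arrays of the classes overlapped for all 14. Il1b had 13.64, 13.55 and 12.59 in DC and 4.97, 5.07 and 4.59 in B cells, against 4.26 to 5.20 (median 4.61) on the T cell arrays. Its signal was thus high on the DC arrays alone, which also carried the granulocyte marker S100a8 at 14.09, 14.09 and 14.22, and the part of granulocytes in it was not tested. Cxcl9 and Cxcl16 were likewise high in DC, and Il12a averaged 5.02 in DC and 8.23 in B cells and was undetected in T cells. The lower members included Il10 (-5.52 ± 0.17) and Tnf (-4.14 ± 0.23), which Th1 and Th2 cells held: Il10 averaged 13.34 in Th1, 13.31 in Th2 and 4.27 in naive CD4 T cells. For B cells alone against T cells 1 member was higher and 6 lower, and with cell type as a random block 1 higher and 0 lower.

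**Figure D5:**
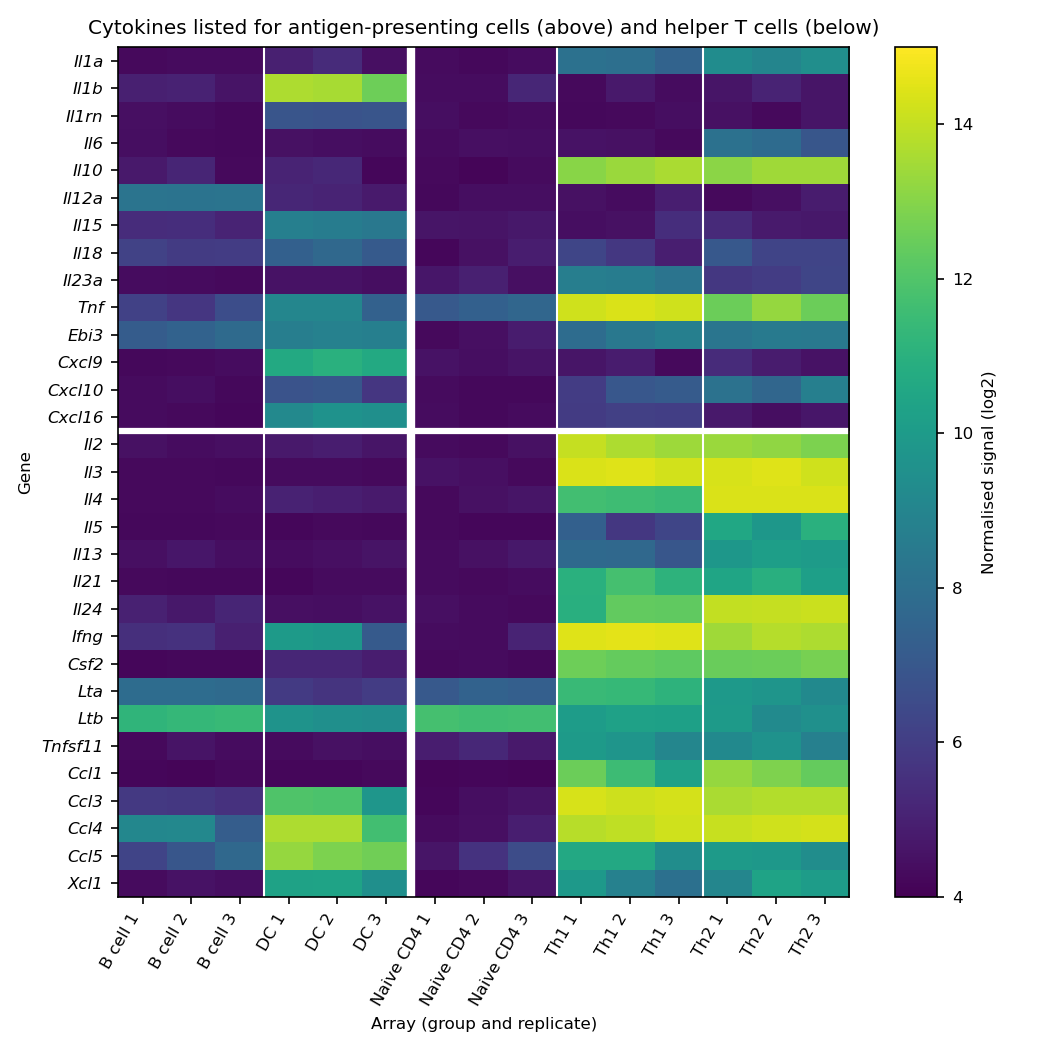
Normalised signal (log2, colour) of 14 cytokines listed for antigen-presenting cells (above the white line) and 17 listed for helper T cells (below it) on each array, with the 6 antigen-presenting arrays on the left. Il1b, Cxcl9 and Cxcl16 are bright on DC arrays, and Il2, Il3 and Il4 on Th1 and Th2 but not on naive CD4 arrays.

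Of 25 cytokine receptors, 8 were higher and 10 lower in antigen-presenting cells (median -0.03). Il2ra, the high-affinity chain of the IL-2 receptor, was undetected on all antigen-presenting arrays and at least 17.1-fold lower there, with 6.11 in naive CD4, 10.33 in Th1 and 10.08 in Th2 cells. Il7r, which keeps naive T cells alive, averaged 7.48 in DC and 5.58 in B cells, against 11.45 in naive CD4, 10.54 in Th1 and 9.33 in Th2 cells (-3.91 ± 0.16). Il10ra was higher by 2.58 ± 0.12, and Csf2ra, the GM-CSF receptor chain, by 2.65 ± 0.15. Il10 and this receptor chain lay on opposite sides, as did Csf2 (-5.10 ± 0.08) and Csf2ra. With B cells alone against T cells 5 receptors were higher and 12 lower, with DC alone 9 were higher and 4 lower, and with cell type as a random block 2 receptors were higher and 2 lower.

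Of 13 homing receptors, 5 were higher and 1 lower (median 0.95). Cxcr5, which leads cells into B cell follicles, averaged 7.32 in DC and 10.97 in B cells, against 5.76 in naive CD4, 4.86 in Th1 and 4.53 in Th2 cells (4.09 ± 0.17). Ccr6 was higher by 5.64 ± 0.09 and Cxcr4 by 3.53 ± 0.31. Ccr8 was the lower member, at least 4.49-fold, with 10.47 in Th2, 5.41 in Th1 and 4.88 in naive CD4 T cells. Ccr7, the lymph node homing receptor, did not pass (0.95 ± 0.27), nor did Gpr183 (0.96 ± 0.25). Under the random block by cell type 3 homing receptors were higher and 0 lower, and Cxcr4 did not pass (adjusted p = 0.0707).

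Among genes that passed and also differed between DC and B cells, the 5 with the largest class difference in each direction were named. On the antigen-presenting side these were Fcrla, Cd79b, Lyz1, Dok3 and Lmo2. Cd79b, the signalling chain of the B cell receptor, had 11.25, 10.32 and 10.02 in DC and 13.25, 13.18 and 13.06 in B cells, against 4.23 to 6.98 (median 4.81) on the T cell arrays (6.73 ± 0.22). Lyz1, a lysozyme, averaged 13.94 in DC and 8.66 in B cells. Lyz1 was higher in DC and the other 4 in B cells. On the T cell side Thy1, Cd6, Cd3g, Cd3d and Cd247 were named, all higher in DC than in B cells, by 1.90 to 2.70. Of the marker lists, 7 of 8 B cell, 8 of 8 granulocyte, 6 of 7 macrophage, 4 of 9 dendritic, 3 of 4 erythroid and 2 of 7 NK and CD8 T cell markers were higher in antigen-presenting cells, and 6 of 6 T cell markers were lower. No T cell array detected 5 of the B cell, 5 of the granulocyte, 4 of the dendritic and 3 of the erythroid markers tested. Mzb1 was the 1 of 4 plasma cell markers that passed (5.14 ± 0.33), and 0 of 3 stromal markers and 0 of 1 platelet markers did.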

How the data were processed

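RNA was extracted with TRI reagent and labelled as biotin cRNA before hybridisation, per the labels' protocols, and the submitters' processing notes name GenomeStudio. The deposited table gives, for 45281 probes, a signal intensity that is not normalised and a detection p-value per array. A further deposited table of scaled intensity values equals these signals times 1 constant per array. Of the probes 34885 have 1 gene symbol, 18 several and 10378 none, by the platform annotation given, updated through RefSeq for 34807 probes. Genome coordinates and promoter windows are those of RefSeq on GRCm38.p6.

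Signals were background-corrected by normexp, with the background taken from the detection p-values, given an offset of 16, quantile-normalised over the 15 arrays and put on the log2 scale (R 4.3.3, limma 3.58.1; Python 3.11.15, pandas 2.3.3, numpy 2.4.6, matplotlib 3.10.9). A gene stands by its detected probe with the highest mean. A linear model with 5 group means was fitted with lmFit and eBayes, all p-values are two-sided and adjusted by Benjamini-Hochberg over all 9742 genes, and the array number limits the precision. The linear model step alone was tested on simulated log2 values.

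The genes named by rule, 96 in all, were H2-Aa, Cd40 and Cd3g; the 12 in each direction with the widest gap between the nearest group means; the 5 in each direction with the largest difference among those that also passed DC minus B cells; and of each list up to 3 passing members with the largest differences and the non-passing member with the largest difference. Other genes were named after their values were seen. Members and lists were chosen with earlier results of these data known. Replicate numbers were checked for pairing by the correlation of deviations from group means: Th1 with Th2 gave 0.668, 0.408 and 0.751, and no other pair of groups exceeded 0.1 for all 3 numbers. Alternatives covered background correction, offset, scaling, detection filter, choice of probe, thresholds, blocks, and each array and group left out. The 3 brain arrays were not used.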

Additional observations from a re-analysis of the deposited data

Results flagged for a closer look

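Xcl1, a chemokine that attracts cross-presenting dendritic cells, did not pass between the classes (-0.47 ± 0.25, adjusted p = 0.109 by limma), but it differed within each of them. It averaged 10.07 in DC and 4.41 in B cells, against 4.36 in naive CD4, 8.93 in Th1 and 9.84 in Th2 cells. The DC minus B cell difference was 5.66, and against T cells the difference was -3.27 with B cells alone and 2.31 with DC alone.

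Probes with no gene in the annotation stood outside the comparison of genes. Of the 2991 such probes that met the detection filter, 681 (22.8%) passed, 385 higher and 296 lower in antigen-presenting cells, beside 23.0% of named genes. No gene name was given to them.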

How the results depend on the processing

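Over 38 alternative settings, the 96 genes named by rule gave 3457 values on the same side of the thresholds with the same sign, 120 that newly passed, 62 that no longer passed and 9 of the opposite sign, and 58 genes kept both throughout. The sign turned for Rfxank under median scaling (0.02), Alox5 (-0.06) and Zbtb46 (-0.71) without the DC group, Ltb4r1 (0.69), Cxcl10 (0.07) and Xcl1 (2.31) without the B cell group, Xcl1 without the Th1 group (0.14) or the Th2 group (0.59), and Uhrf1 without the naive CD4 group (-0.11). The cause was not tested, beyond the samples that each setting leaves out.

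Antigen-presenting minus T cells gave 2241 passing genes, 1219 higher and 1022 lower. The count was 651 (383 higher, 268 lower) with cell type as a random block, 1451 (500 lower) with the authors' scaled values, 1404 (780 higher, 624 lower) without background correction, 3374 (1576 lower) with offset 1 and 1492 (672 lower) with offset 50. Median scaling gave 2923 higher and 423 lower. A log2 threshold of 0 gave 6969 (3425 higher, 3544 lower) and one of 2 gave 644 (414 higher, 230 lower). Leaving out 1 array gave 2189 to 2298 (1185 to 1242 higher, 1004 to 1056 lower).

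DC minus B cells gave 1110 (317 lower) without background correction, 1427 lower under median scaling, 964 lower with offset 1, 337 lower with offset 50, 4278 (2025 higher, 2253 lower) at threshold 0 and 631 (532 higher, 99 lower) at threshold 2. Leaving out 1 array gave 1641 to 1792 (1119 to 1186 higher, 522 to 606 lower). Th1 and Th2 minus naive cells gave 841 higher with the authors' scaled values, 2104 (1081 lower) without background correction, 6527 (2977 higher, 3550 lower) at threshold 0 and 1013 (567 higher, 446 lower) at threshold 2. Leaving out 1 array gave 3139 to 3286 (1473 to 1538 higher, 1666 to 1748 lower). With the replicate number as a block, 2241, 1719 and 3207 genes passed in the 3 comparisons, and no call of a gene named by rule changed. Only Th1 with Th2 had correlated above 0.1 for all 3 replicate numbers, and B cells with DC gave 0.092, 0.211 and 0.325.

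Signal over background limits the low genes. A gene detected on no array of a class has only a bound there, and a difference near the offset understates the change. Background differed between the classes on every array and cannot be told apart from cell class. The p-values measure the spread between arrays of a group.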

Other observations

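Of 13 glycolytic genes, 8 were lower in antigen-presenting cells and 0 higher (median -1.34), where 10.5% of all genes were lower. The median level of the list was high in the effector cells alone. It was 9.16 in DC, 8.99 in B cells and 8.86 in naive CD4, against 11.09 in Th1 and 10.62 in Th2 cells. Ldha, the lactate dehydrogenase, averaged 11.21 in DC and 10.74 in B cells, against 12.06 in naive CD4, 12.92 in Th1 and 12.84 in Th2 cells (-1.63 ± 0.09), and Pkm, the pyruvate kinase, differed by -1.98 ± 0.09. Between Th1 and Th2 cells and naive cells 9 of the 13 were higher and 1 lower, a test that 32.9% of all genes passed. Under median scaling 3 members were lower and 1 higher, and with cell type as a random block 3 were lower. Of 19 cell cycle genes 0 passed by limma between the classes at the adjusted threshold and fold, against 23.0% of all genes. Of the 19, 13 were higher in Th1 and Th2 than in naive cells, as were 1506 of all 9742 genes. With B cells alone against T cells 4 cell cycle genes were lower, with DC alone 5 were higher, and under median scaling 7 were higher.

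Of 18 DNA methylation and CpG island factors 2 were higher and 1 lower in antigen-presenting cells (median 0.21), where 23.0% of all genes passed. Under median scaling 8 were higher and 0 lower. Gadd45a, a stress-response protein linked to DNA demethylation, averaged 9.09 in DC and 9.35 in B cells, against 7.20 in naive CD4, 5.78 in Th1 and 5.26 in Th2 cells (3.14 ± 0.25). Mbd4, a glycosylase that removes mispaired thymine at CpG sites, was higher by 1.89 ± 0.10, and Tdg, another such glycosylase, differed by -1.31 ± 0.08. Under the random block by cell type 2 factors were higher and 0 lower, and Tdg did not pass (adjusted p = 0.0805). Dnmt1, the maintenance methyltransferase, did not pass (0.27 ± 0.10). Of 6 GIMAP GTPases, which act in lymphocyte survival, 1 was lower and 0 higher. That gene, Gimap5, had -1.48 ± 0.16, and without Th1 replicate 3 a further member was higher, with 3 higher for B cells alone, 3 lower for DC alone, and 2 higher and 0 lower under median scaling. Gimap5 did not pass with cell type as a random block (adjusted p = 0.182), nor did any other member.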
